A study of Mus musculus with 6 samples.

Results

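The Hox genes of clusters a to d were followed in fetal mouse lung, with 33 of them represented on the array among 18193 genes. A gene was included when its symbol in the platform annotation was Hoxa, Hoxb, Hoxc or Hoxd with a paralogue number from 1 to 13, and the brightest of its probe sets, by the mean of the 6 arrays, stood for it. RNA came from the left lung lobe of C57/BL6 embryos at E18.5. In 3 embryos Smad1, a transcription factor of BMP signalling, was knocked out conditionally in the lung epithelium (CKO), and each was paired with 1 of 3 wild type embryos. The sources used here do not give the Cre driver, the deleted part of Smad1 or the alleles of the wild type embryos. Every lobe had its own Affymetrix Mouse430_2 array, and precision is limited by having 3 arrays for each genotype. Levels are log2(intensity + 1). A difference is the CKO level minus the wild type level of the same pair, averaged over 3 pairs and given with ± the SD between them.

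Hox genes encode homeodomain transcription factors that give cells their position along the head to tail axis. They lie in clusters in which the order of the genes on the chromosome follows the order in which they are expressed along the body, with low numbers towards the head and high numbers towards the tail, pelvis and digits. Genes of the same number in different clusters are paralogues and often act together. In the developing lung they are known mainly from the mesenchyme, where Hoxa5 is required for normal growth of the trachea and lung, and Hoxb5 is known for a part in airway branching.

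Of the 39 Hox genes in the RefSeq table, 33 were members: 9 in the Hoxa cluster on chromosome 6, 9 in Hoxb on chromosome 11, 7 in Hoxc on chromosome 15 and 8 in Hoxd on chromosome 2. Hoxb8 and Hoxd4 were covered only by probe sets that carry 2 Hox symbols and were left out. The remaining genes were not analysed here. The members had 48 probe sets in all, and 22 members had 1 probe set.

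RefSeq promoters (build GRCm38.p6) were found for 19 members, and 5 of these genes lay above the array median in wild type lung. Their 250 bases before the transcription start are shown because these members lay above the array median, and CpG dinucleotides are in capitals. The stretches lie at chr6:52213068-52213317 (minus strand) for Hoxa3, chr6:52204588-52204837 (minus strand) for Hoxa5, chr6:52218574-52218823 (minus strand) for Hoxa7, chr6:52227371-52227620 (minus strand) for Hoxa9 and chr11:96318017-96318266 (plus strand) for Hoxb4. The Hoxa3 stretch lies between those of Hoxa5 and Hoxa7, although Hoxa3 comes before Hoxa4 and Hoxa5 in chromosome order. It thus belongs to a far upstream start, beyond that of Hoxa5, and its use in lung was not tested.

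Hoxa3: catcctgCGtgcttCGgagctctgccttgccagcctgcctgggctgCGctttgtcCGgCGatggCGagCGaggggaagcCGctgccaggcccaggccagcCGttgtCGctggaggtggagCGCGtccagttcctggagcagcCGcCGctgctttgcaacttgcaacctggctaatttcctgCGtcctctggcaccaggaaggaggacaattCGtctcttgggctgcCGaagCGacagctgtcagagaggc

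Hoxa5: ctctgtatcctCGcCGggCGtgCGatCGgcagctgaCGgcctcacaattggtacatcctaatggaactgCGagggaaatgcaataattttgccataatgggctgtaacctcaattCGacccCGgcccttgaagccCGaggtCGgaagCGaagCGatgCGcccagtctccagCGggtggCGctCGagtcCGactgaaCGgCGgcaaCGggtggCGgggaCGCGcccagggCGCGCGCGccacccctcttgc

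Hoxa7: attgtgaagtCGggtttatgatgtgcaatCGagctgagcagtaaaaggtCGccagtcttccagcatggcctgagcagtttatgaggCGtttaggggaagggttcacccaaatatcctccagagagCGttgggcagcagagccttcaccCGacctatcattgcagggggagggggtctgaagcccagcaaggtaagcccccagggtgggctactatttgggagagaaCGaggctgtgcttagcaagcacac

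Hoxa9: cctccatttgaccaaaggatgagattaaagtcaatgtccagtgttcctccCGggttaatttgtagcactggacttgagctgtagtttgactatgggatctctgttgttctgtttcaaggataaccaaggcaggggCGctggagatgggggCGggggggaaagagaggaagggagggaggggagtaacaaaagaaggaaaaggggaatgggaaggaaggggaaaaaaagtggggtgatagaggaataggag

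Hoxb4: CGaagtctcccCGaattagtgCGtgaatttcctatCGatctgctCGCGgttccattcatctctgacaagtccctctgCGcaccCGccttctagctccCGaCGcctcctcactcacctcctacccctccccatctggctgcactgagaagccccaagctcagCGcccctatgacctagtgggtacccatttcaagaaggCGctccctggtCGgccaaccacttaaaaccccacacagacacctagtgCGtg

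CpG dinucleotides numbered 28 in the Hoxa5 stretch, 18 in that of Hoxa3, 14 in Hoxb4, 7 in Hoxa7 and 3 in Hoxa9, against a median of 6 over 32851 mouse promoters. The 21 promoters of members ranged from 2 to 35. On both strands, the hexamer AGGTCA that retinoic acid receptors bind was searched, as were the GC-rich element GGCGCC that Smad1 can bind and the homeodomain core TAATTA. Of the 5 stretches only that of Hoxb4 held AGGTCA, 1 time. None of the 5 held GGCGCC or TAATTA. Over all promoters, 14.02% held AGGTCA, 9.59% held GGCGCC and 4.84% held TAATTA, and over the 21 member promoters 5, 5 and 2 did, with both TAATTA matches in promoters of Hoxd11. None of the 3 motifs contains another, and GGCGCC and TAATTA read the same on both strands.

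In wild type lung, 9 of the 10 members above the array median belonged to the Hoxa and Hoxb clusters, and 8 of the 10 had a paralogue number from 1 to 8. With no detection calls in the deposited table, a level was set against the mean of the 3 wild type array medians, 6.16. By this measure 10 of 33 members were above, which is 30.3%, against 64.5% of all genes. They were Hoxa3, Hoxa5, Hoxa7 and Hoxa9 (4 of 9 in Hoxa), Hoxb2, Hoxb3, Hoxb4, Hoxb5 and Hoxb6 (5 of 9 in Hoxb) and Hoxc9 (1 of 7 in Hoxc), while 0 of 8 Hoxd members were. By paralogue position, 4 of 10 members at positions 1 to 4, 4 of 9 at positions 5 to 8 and 2 of 14 at positions 9 to 13 lay above. Probe sets differ in how strongly they bind, so levels of different genes are not ordered here, and a level below the median does not show that the RNA is absent.

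The wild type means of the 10 members above the median ran from 6.37 to 9.49, and those of the 23 others from 3.87 to 6.02. Hoxa4 and Hoxc4, both at 6.02, lay just below the limit, and Hoxb6, at 6.37, just above it. Wild type lung 3 was lower than wild type lungs 1 and 2 for Hoxa4, Hoxb2, Hoxb4, Hoxb5 and Hoxb6. At Hoxa4 wild type lungs 1 to 3 were at 6.24, 6.45 and 5.37, a range of 1.08 that was the widest of all members. CKO lung 3 was also low at Hoxa4, at 5.14, and the pair differences were -0.14, -0.41 and -0.23. At other members the wild type range was narrower, and at Hoxa7 it was 0.14, beside a genotype difference of 0.82.

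**Figure D1:**
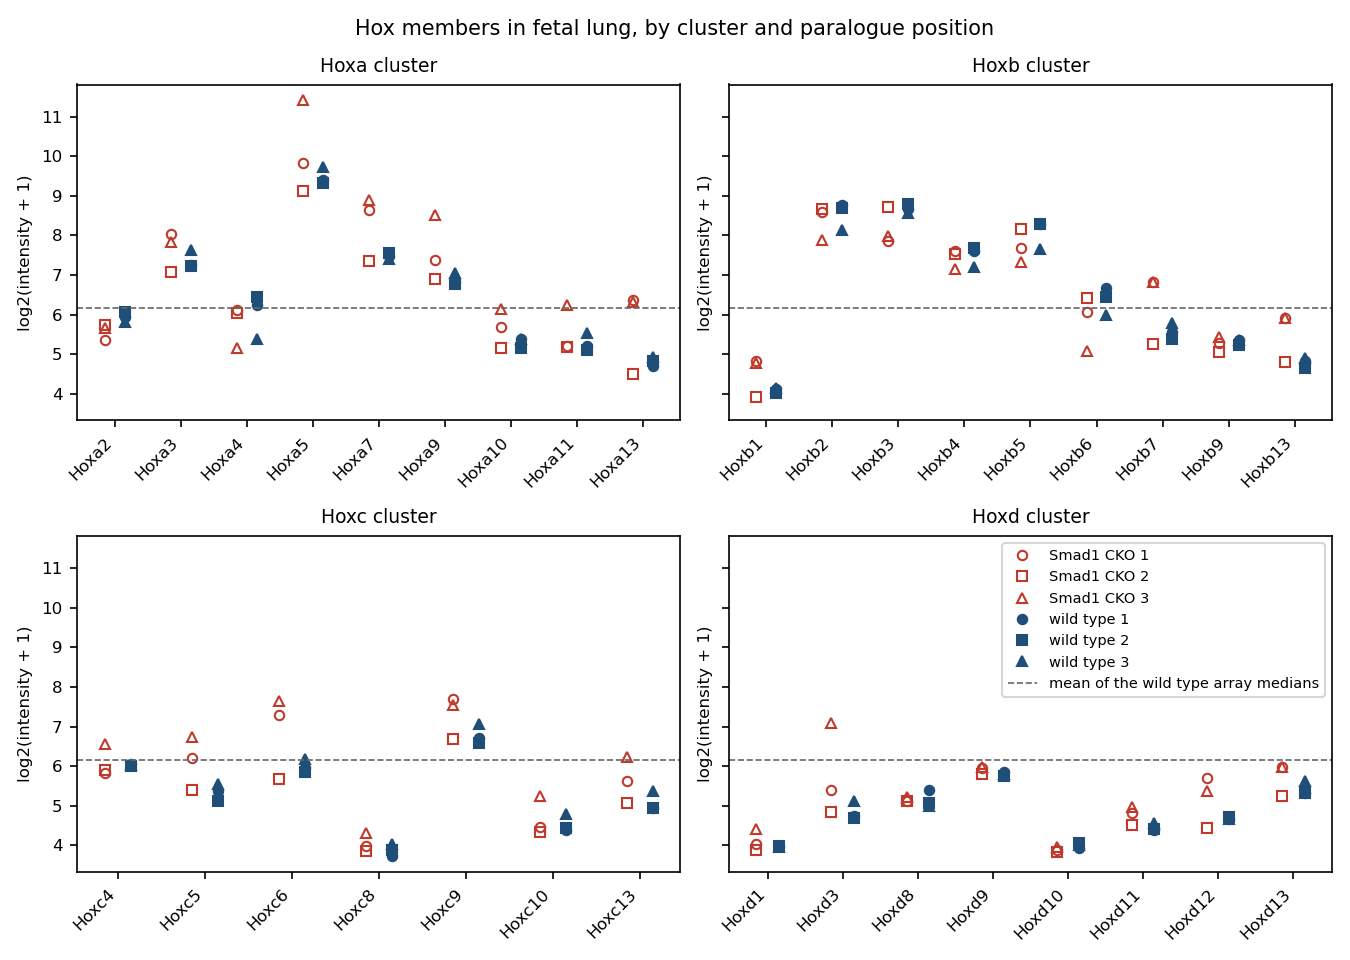
Levels of the 33 Hox members as log2(intensity + 1), 1 panel per cluster with genes in order of paralogue number. Open red points are the 3 Smad1 CKO lungs, filled blue points the 3 wild type lungs, symbols mark the pair, and the dashed line is the mean of the wild type array medians (6.16). Hoxa5 stands above 9 on all arrays, 5 members of Hoxb have a wild type mean above the line, and all 8 Hoxd members lie below it on every wild type array.

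Among arrays, Smad1 CKO 3 stood apart. Its 18S ribosomal RNA control probe sets averaged an intensity of 2194, against 180.1 and 182.7 in CKO lungs 1 and 2 and 154.0 to 201.0 in wild type lungs, and its upper quartile was 170.3, against 236.5 to 283.8 in wild type lungs. Smad1 CKO 1 had a log2 Xist level of 10.95, with 6.34 and 7.70 in the other CKO lungs and 6.07 to 6.62 in wild type lungs, and its Y-linked Eif2s3y was at 3.78, with 9.04 and 7.06 in CKO lungs 2 and 3 and 8.66 to 8.98 in wild type lungs. Sex-linked genes thus differed most in pair 1, and in pair 3 Xist was higher and Eif2s3y lower in the CKO lung than in its wild type partner. The targeted gene Smad1 was at 10.12, 10.62 and 9.05 in CKO lungs and at 10.004, 10.09 and 9.53 in wild type lungs, 0.06 ± 0.51. Its other probe sets gave -0.28 and -0.18, and each Smad1 probe set was higher in pairs 1 and 2 and lower in pair 3. These values do not check the labels, since only the epithelium was targeted and the probes may lie outside the deleted part.

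Bright genes were lower and dim genes higher in CKO lungs 1 and 3 across the whole array, and the Hox values need to be read beside this. All genes above the array median in wild type had median differences of -0.27, -0.03 and -0.73 in pairs 1 to 3. Genes below it had 0.28, 0.04 and 0.40. Of the brighter genes 43.2% were lower and 8.4% higher in all 3 pairs, and of the dimmer genes 4.2% were lower and 43.8% higher.

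The main question was whether Hox expression differed in lungs labelled as lacking Smad1 in the epithelium. With the pair as a block, 0 of 33 members passed in limma at an adjusted p of 0.05 over 45037 probe sets, where 1 probe set (0.00222%) passed. The adjusted p of the members ran from 0.367 to 0.997. At an unadjusted p under 0.05, 4 members were higher, Hoxb13, Hoxc5, Hoxc13 and Hoxd3, where 4.96% of all genes were, and 0 were lower, where 9.96% of all genes were. All 4 were below the array median in wild type, where 609 of 6460 genes were higher and 45 lower at this limit. Among genes above it 294 of 11733 were higher and 1767 lower, beside 0 and 0 of the 10 members. In fits without pair 1, 2 or 3 the members with an unadjusted p under 0.05 numbered 0, 15 and 2, and the probe sets past the adjusted threshold 0, 1 and 28. The share of all genes with an unadjusted p under 0.05 was not computed in these 3 fits. Their member counts thus lack a background and are not read as a result about Hox genes. The median difference of the members was 0.28, against -0.09 over all genes. By pair it was 0.29, -0.08 and 0.46, against -0.09, -0.0018 and -0.16 over all genes. Higher values in CKO lungs were seen for 22 members in pair 1, 11 in pair 2 and 25 in pair 3, against 43.1%, 49.5% and 43.6% of all genes. Of the 23 members below the array median 16, 9 and 20 were higher, where 5096, 3829 and 5480 of 6460 such genes were. Of the 10 members above it 6, 2 and 5 were higher, where 2738, 5185 and 2450 of 11733 such genes were. In a lobe with many cell types, fewer cells that express a gene and less RNA in each cell cannot be told apart.

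In direction, 9 members were higher in all 3 pairs (Hoxa9, Hoxa10, Hoxb13, Hoxc5, Hoxc9, Hoxc13, Hoxd3, Hoxd9 and Hoxd11), against 21% of all genes. Lower in all 3 pairs were 7 members (Hoxa2, Hoxa4, Hoxb2, Hoxb3, Hoxb5, Hoxb6 and Hoxd10), against 29.3% of all genes. The other 17 were mixed. Of these, 12 were higher in pairs 1 and 3 and lower in pair 2, where 12.5% of all genes and 26.8% of the genes below the array median were. By level, 7 of the 23 members below the array median were higher and 3 lower in all 3 pairs, where 43.8% and 4.2% of such genes were. Among the 10 members above it 2 were higher and 4 lower, where 8.4% and 43.2% of such genes were. Only Hoxa2 had all its CKO values below all its wild type values, and 0 members had them all above, where 6.05% and 4.25% of all genes did.

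**Figure D2:**
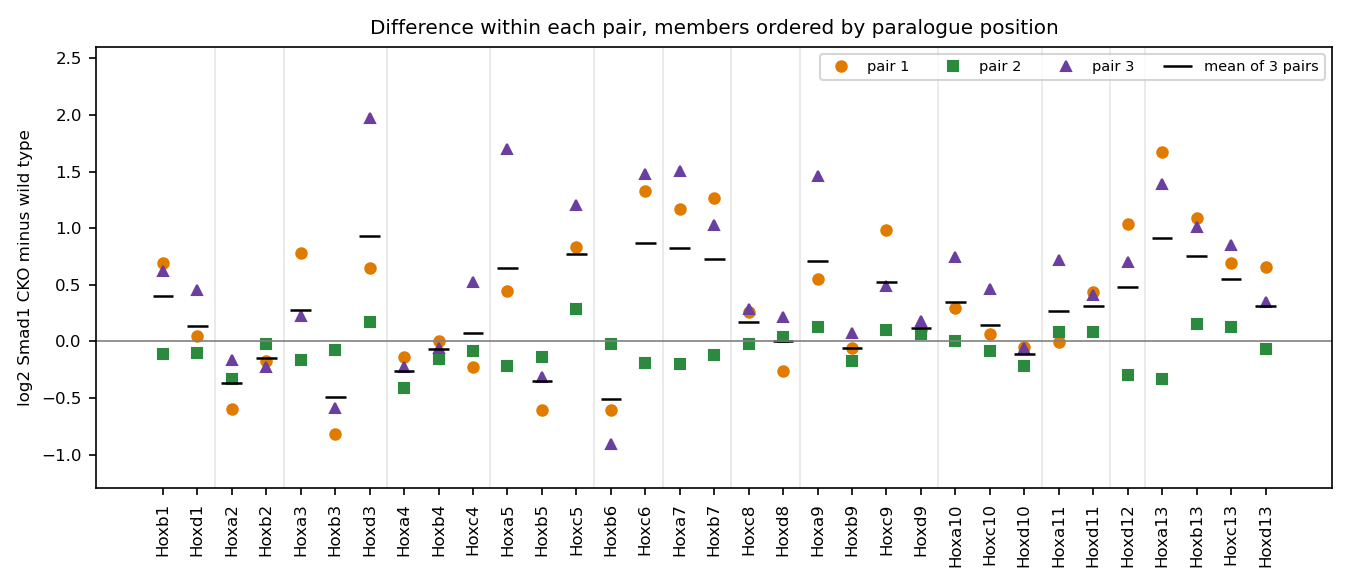
Difference of each Hox member (log2 CKO minus wild type) in pairs 1, 2 and 3, with the mean as a bar and members ordered by paralogue position (thin vertical lines separate positions). Pair 2 stays between -0.41 and 0.28 for every member, while pairs 1 and 3 spread from -0.90 to 1.97.

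Hoxb genes of positions 2 to 6 had slightly lower means in CKO lungs, within the spread of the arrays. Hoxb2, which acts in hindbrain patterning, was at 8.60, 8.67 and 7.90 in CKO lungs 1 to 3 and at 8.77, 8.70 and 8.13 in wild type lungs 1 to 3. Its difference was -0.14 ± 0.10 (95% interval -0.60 to 0.31), and it was lower in each pair while the groups overlapped. Hoxb3, a paralogue of the gene that patterns thymus and parathyroid (Hoxa3), was at 7.86, 8.72 and 7.99 in CKO lungs and at 8.68, 8.80 and 8.58 in wild type lungs. The difference of Hoxb3 was -0.49 ± 0.38 (95% interval -1.04 to 0.05, limma adjusted p = 0.367), small in pair 2 and larger in pairs 1 and 3.

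Hoxb4, known for its part in blood stem cells, was at 7.61, 7.53 and 7.15 in CKO lungs and at 7.61, 7.69 and 7.21 in wild type lungs. Its CKO and wild type ranges largely overlapped, with a difference of -0.07 ± 0.08 (95% interval -0.52 to 0.38). Hoxb5, linked to airway branching, was at 7.68, 8.16 and 7.34 in CKO lungs and at 8.29, 8.29 and 7.66 in wild type lungs. It was lower in each pair, at -0.35 ± 0.24 (95% interval -0.84 to 0.13, limma adjusted p = 0.377), while CKO lung 2 lay above wild type lung 3. Hoxb6, a middle gene of the cluster, was at 6.07, 6.42 and 5.08 in CKO lungs and at 6.67, 6.44 and 5.99 in wild type lungs. The values of Hoxb6 gave -0.51 ± 0.45 (limma adjusted p = 0.367), with pair differences of -0.60, -0.02 and -0.90.

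These 5 Hoxb genes had a median of -0.35, beside -0.37 for all genes above the array median. After cyclic loess normalization their median was -0.02, with 2 higher and 3 lower, and after quantile normalization it was -0.09, again with 2 higher and 3 lower. Hoxb2 and Hoxb4 turned to positive values under both. Without Smad1 CKO 3, in an unpaired fit, the median was -0.12. The second probe set of Hoxb3 gave -0.18 and that of Hoxb4 -0.27, in the same direction as the representative ones.

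Hoxa7, Hoxa9 and Hoxc9 had higher values in CKO lungs 1 and 3 than in the wild type lungs of the same pairs. Hoxa7, a gene of the thoracic region of the body axis, was at 8.65, 7.35 and 8.91 in CKO lungs and at 7.48, 7.55 and 7.41 in wild type lungs. CKO lungs 1 and 3 exceeded all wild type lungs, CKO lung 2 lay below them, and the difference was 0.82 ± 0.90 (95% interval -0.05 to 1.70, limma adjusted p = 0.367). Hoxa9, known from blood progenitors and leukaemia, was at 7.39, 6.90 and 8.52 in CKO lungs and at 6.83, 6.77 and 7.06 in wild type lungs. It was higher in each pair, at 0.71 ± 0.68 (95% interval -0.01 to 1.44, limma adjusted p = 0.367), with 1.46 in pair 3 and 0.12 in pair 2. The dimmer probe set of Hoxa9 gave 0.04.

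Hoxc9, a patterning gene of the trunk and its motor neurons, was at 7.70, 6.69 and 7.54 in CKO lungs and at 6.72, 6.59 and 7.05 in wild type lungs. Its difference was 0.53 ± 0.44 (95% interval -0.05 to 1.10, limma adjusted p = 0.367), with CKO lung 2 inside the wild type range. Hoxa7, Hoxa9 and Hoxc9 are the members above the array median with a number of 7 or more. Their median was 0.71, while all genes above the array median had -0.37. It was 0.92 after cyclic loess normalization, 1.04 after quantile normalization, 0.48 without pair 3, 0.65 without pair 1 and 1.01 without pair 2, with all 3 genes higher in each of these fits. These 3 genes were grouped after their values were seen. Every fit without 1 pair keeps pair 1 or pair 3, where all 3 genes were higher, so such fits could hardly turn. In pair 2 alone Hoxa7, Hoxa9 and Hoxc9 were at -0.20, 0.12 and 0.10.

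Every member was also set beside the genes outside the clusters with a wild type level within 0.25 of its own, a comparison chosen after the values were seen. Over all 33 members, 20 lay above and 13 below the median of their like-level genes, and the median distance was 0.05 (0.18, -0.11 and 0.30 in pairs 1 to 3). The 10 members above the array median had 7 above and 3 below, with a median distance of 0.36. The 23 others had 13 above and 10 below, with 0.02. Representative probe sets were chosen on all arrays, CKO lungs included, and the 7 include Hoxa5 and Hoxa3. In wild type lungs another probe set of each was brighter, at 10.21 against 9.49 for Hoxa5 and 7.54 against 7.37 for Hoxa3. The brighter ones gave differences of -0.93 and -0.41. They were not set beside like-level genes, so the 7 depends on the choice of probe set. The share of like-level genes with a larger difference was under 3% for Hoxa5 (0.76%), Hoxa7 (0.91%), Hoxd3 (2.36%), Hoxa13 (2.49%) and Hoxa9 (2.95%). At the other end it was above 90% for Hoxd10 (98.9%), Hoxb6 (93.96%), Hoxa2 (93.9%), Hoxa4 (90.6%) and Hoxb9 (90.1%). Hoxc9 had 9.92%, Hoxb2 21.0%, Hoxb4 33.3%, Hoxb5 51.5% and Hoxb3 60.1%. The 0.76% of Hoxa5 belongs to its representative probe set, and no such share was computed for its other probe set.

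**Figure D3:**
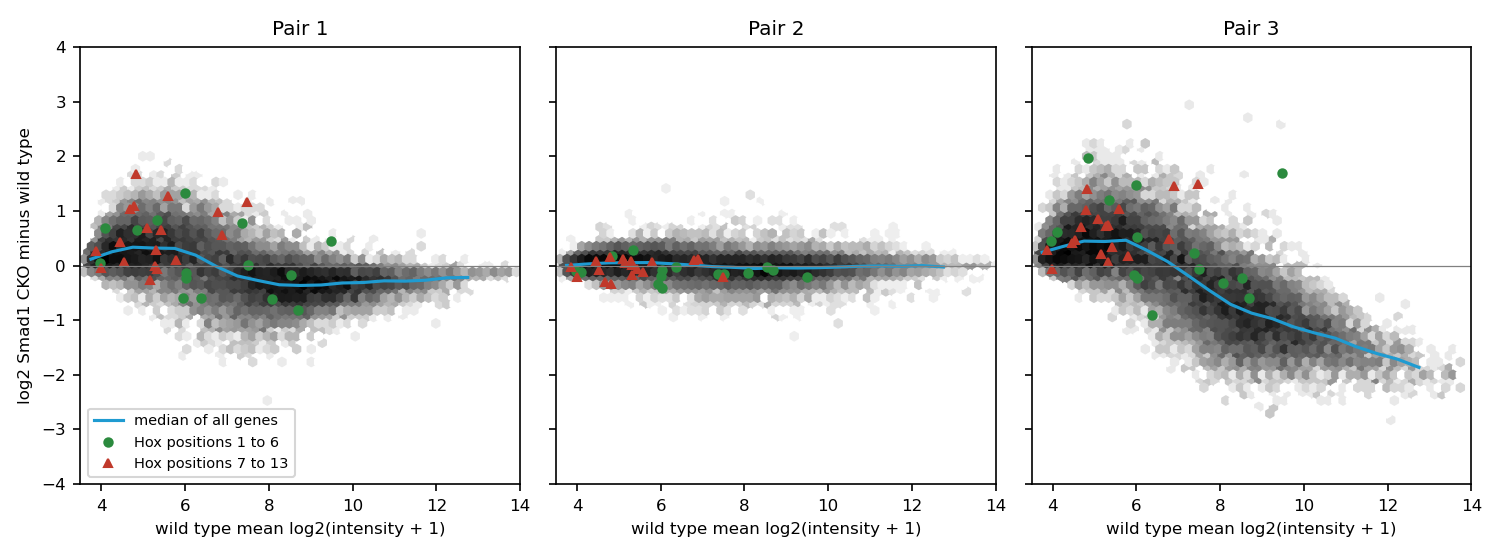
Difference (log2 CKO minus wild type) against wild type mean level for all 18193 genes (grey, darker for more genes) in each pair, with the median of all genes in steps of level (blue line), Hox positions 1 to 6 (green circles) and positions 7 to 13 (red triangles). In pairs 1 and 3 the blue line runs above 0 for dim genes and below 0 for bright ones, and it is nearly flat in pair 2.

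For Hoxa5 and Hoxa3 the direction depended on the probe set. The representative probe set of Hoxa5 was at 9.84, 9.12 and 11.43 in CKO lungs and at 9.39, 9.33 and 9.73 in wild type lungs, a difference of 0.64 ± 0.97. The other probe set of Hoxa5 was at 10.18, 10.07 and 7.61 in CKO lungs and at 10.52, 10.64 and 9.47 in wild type lungs, a difference of -0.93 ± 0.82. The representative one ends in x_at, a mark for probes that can bind other transcripts. Smad1 CKO 3 was the highest of all 6 arrays on it and the lowest of all 6 on the other. Neither passed (limma adjusted p = 0.384 and 0.367), so no direction is given for Hoxa5. Without pair 3 the representative probe set gave 0.12 and the other -0.46. The other one was lower in each pair, with an unadjusted p of 0.0319 in limma, and is not part of the count of members with an unadjusted p under 0.05, which uses representative probe sets.

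Hoxa3, needed for thymus and parathyroid development, was at 8.03, 7.07 and 7.85 in CKO lungs and at 7.25, 7.23 and 7.63 in wild type lungs by its representative probe set, 0.28 ± 0.47. The Hoxa3 probe set ending in s_at was at 7.31, 7.56 and 6.50 in CKO lungs and at 7.82, 7.85 and 6.94 in wild type lungs, -0.41 ± 0.11. The s_at probe set was lower in each pair while the groups overlapped. Of the 11 members with more than 1 probe set, Hoxa3, Hoxa4, Hoxa5 and Hoxd8 had probe sets in both directions. The probe sets of Hoxb3, Hoxb4, Hoxa9, Hoxa10, Hoxc5, Hoxc6 and Hoxd13 kept 1 direction.

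**Figure D4:**
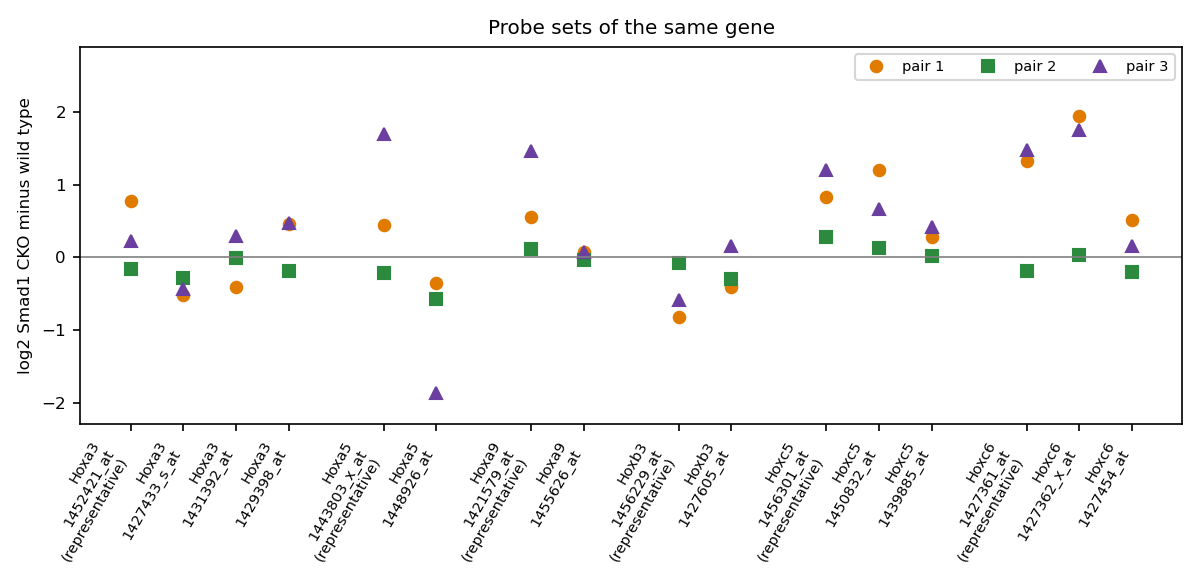
Difference (log2 CKO minus wild type) in pairs 1 to 3 for every probe set of Hoxa3, Hoxa5, Hoxa9, Hoxb3, Hoxc5 and Hoxc6, with the representative probe set first in each gene. The 2 probe sets of Hoxa5 differ most in pair 3, at 1.70 and -1.87.

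Among members below the array median in wild type, the 6 with the smallest unadjusted p were all higher in CKO lungs 1 and 3. Hoxc5, a paralogue of Hoxa5 and Hoxb5, was at 6.21, 5.39 and 6.74 in CKO lungs and at 5.37, 5.10 and 5.53 in wild type lungs, 0.77 ± 0.46 (limma unadjusted p = 0.0186, adjusted p = 0.367). CKO lungs 1 and 3 exceeded all wild type lungs, and CKO lung 2 did not. Its other probe sets gave 0.67 and 0.24. Hoxb13, known from the prostate and tail bud, was at 5.91, 4.80 and 5.92 in CKO lungs and at 4.82, 4.64 and 4.91 in wild type lungs, 0.75 ± 0.52 (limma unadjusted p = 0.0253).

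Hoxd3, which shapes the first neck vertebrae together with Hoxa3, was at 5.38, 4.85 and 7.09 in CKO lungs and at 4.74, 4.67 and 5.12 in wild type lungs, 0.93 ± 0.93 (limma unadjusted p = 0.0443). Its pair 3 value of 1.97 was far from the 0.64 and 0.17 of pairs 1 and 2, and without pair 3 the mean was 0.41. Hoxc13, a gene of hair and nail formation, was at 5.63, 5.07 and 6.23 in CKO lungs and at 4.94, 4.94 and 5.38 in wild type lungs, 0.55 ± 0.38 (limma unadjusted p = 0.0475). Hoxc6 was at 7.28, 5.67 and 7.65 in CKO lungs and at 5.95, 5.86 and 6.17 in wild type lungs, 0.87 ± 0.93. Its 2 other probe sets gave 1.25 and 0.16. Hoxb7, known from kidney ducts, was at 6.83, 5.26 and 6.82 in CKO lungs and at 5.56, 5.38 and 5.79 in wild type lungs, 0.73 ± 0.74. For Hoxc6 and Hoxb7, CKO lung 2 lay below all wild type lungs and CKO lungs 1 and 3 above them.

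The 23 dim members had a median difference of 0.31, close to the 0.26 of all genes below the array median. By pair their medians were 0.29, -0.08 and 0.53, against 0.28, 0.04 and 0.40 for those genes. Of the 23, 18 had a higher mean in CKO lungs and 5 a lower one. Without pair 3 their median was 0.15. The remaining 17 members, not given array by array, had differences from -0.37 to 0.91 and unadjusted p from 0.0698 to 0.995 (limma). Their upper end was Hoxa13, a gene of digits and genitalia, at 1.67, -0.34 and 1.39 in pairs 1 to 3. The lower end was Hoxa2, a gene of hindbrain and branchial arch patterning, at -0.60, -0.33 and -0.17.

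By paralogue position, all 4 members at position 13 (Hoxa13, Hoxb13, Hoxc13 and Hoxd13) had higher means in CKO lungs. All of them were below the array median in wild type, where 5652 of 6460 genes had a higher mean. Both members at position 2, Hoxa2 and Hoxb2, had lower means. The median was 0.00013 at positions 1 to 4, 0.64 at positions 5 to 8 and 0.33 at positions 9 to 13. The 0.64 is the value of Hoxa5 by its representative probe set, and the other Hoxa5 probe set gave -0.93. Without pair 3 the median at positions 5 to 8 was 0.12. By cluster it was 0.35 in Hoxa, -0.07 in Hoxb, 0.53 in Hoxc and 0.22 in Hoxd. In pair 2 the cluster medians were -0.20, -0.11, -0.03 and -0.01, so the higher values of Hoxa, Hoxc and Hoxd were those of pairs 1 and 3. The clusters also differ in level, with 4 of 9 Hoxa, 5 of 9 Hoxb, 1 of 7 Hoxc and 0 of 8 Hoxd members above the array median. All genes above it had a median of -0.37 and all genes below it 0.26. The difference between clusters was not tested.

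The spread within CKO lungs was wide. The SD over the 3 CKO lungs exceeded that over the 3 wild type lungs in 30 of 33 members, which is 90.9%, against 90.4% of all genes. The median SD of members was 0.51 in CKO lungs and 0.16 in wild type lungs, beside 0.50 and 0.16 for all genes.

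Transcripts from the opposite strand of the clusters were also on the array. Hoxb5os, which overlaps Hoxb5 and Hoxb6 in the RefSeq table, was at 8.68, 9.10 and 9.41 in CKO lungs and at 8.40, 8.77 and 8.39 in wild type lungs, 0.54 ± 0.41. It was higher in each pair, where Hoxb5 was lower in each pair, and it was named after its values were seen. The interval of Hoxb5os, -0.02 to 1.11, includes 0, and the difference between the genes was not tested. Hoxa11os gave 0.50 by its brightest probe set (1.27, 0.01 and 0.22 in pairs 1 to 3) and 0.12 by the other. Hoxd3os1 gave 0.47 by its brightest probe set and -0.01 by the other.

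Hox proteins bind DNA together with TALE homeodomain cofactors of the Pbx, Meis and Pknox families. Of 8 measured cofactors, 4 were lower in all 3 pairs and 1 higher, and 0 passed, with a median of -0.30. Of the 8, 7 were above the array median, where 43.2% of all genes were lower in all 3 pairs and the median was -0.37. Meis2 was at 7.62, 8.33 and 6.25 in CKO lungs and at 8.85, 8.71 and 8.41 in wild type lungs. All CKO values lay below all wild type values, at -1.25 ± 0.89 (limma unadjusted p = 0.0123, adjusted p = 0.367), and its other probe sets gave -1.38, -0.82 and -0.46. Meis1 was at 8.39, 8.63 and 7.26 in CKO lungs and at 8.99, 9.07 and 8.58 in wild type lungs, -0.79 ± 0.47 (limma unadjusted p = 0.0176). The dimmer probe sets of Meis1 gave -0.33 and 0.23. Pknox1 was at -0.49 ± 0.34, and Pbx2 at -0.60 ± 0.65, or -0.23 without pair 3. Without pair 3 Meis2 was at -0.80 and Meis1 at -0.52.

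Most chromatin regulators of Hox genes had lower means in CKO lungs, as did most genes above the array median. Polycomb group proteins keep Hox clusters silent, and 7 of their 17 measured genes were lower in all 3 pairs and 2 higher (median -0.38). Ezh2, the methyltransferase for lysine 27 of histone H3, was at -0.70 ± 0.67, or -0.32 without pair 3. Ezh1 was at -0.55 ± 0.36 and Cbx7 at 0.65 ± 0.46. Of the Polycomb genes 16 were above the array median, as were all 8 of the next list, and without pair 3 the medians of the lists were -0.20 and -0.16. Trithorax group genes and H3K27 demethylases keep Hox genes active, and 5 of 8 were lower in all 3 pairs (median -0.38), among them Kmt2a at -0.30 ± 0.15. Of 13 genes of retinoic acid, Cdx and Gdf11, inputs that set Hox expression in the embryo, 3 were lower and 4 higher in all 3 pairs (median 0.01). The retinoic acid synthesis genes Aldh1a1 and Aldh1a2 were at -1.08 ± 0.56 and -0.15 ± 0.47. Cyp26a1, which breaks retinoic acid down, was at 0.89 ± 0.86, or 0.66 without pair 3, and the signal Gdf11 at 0.61 ± 0.50, or 0.34 without pair 3. At an unadjusted p under 0.05 in limma, 1 gene of this list was lower (Aldh1a1) and 2 were higher (Cyp26a1 and Gdf11). None of these genes passed.

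Genes next to the clusters differed in both directions. Of 20 flanking genes, 5 were lower and 3 higher in all 3 pairs (median -0.35). The dim homeobox gene Evx2, beside Hoxd13, was at 0.79 ± 0.39 (limma unadjusted p = 0.0131), while Lnpk, also near Hoxd, was at -0.93 ± 0.82 and Skap2, near Hoxa, at -0.69 ± 0.61. Without pair 3 Skap2 was at -0.35, Lnpk at -0.64 and the list's median at -0.09. Of the 20 genes 16 were above the array median. None of the 20 passed.

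Markers of the cells in the lobe were read beside these values, and their part in the Hox differences was not tested. Of 19 lung mesenchyme markers 18 were above the array median in wild type, with summed intensities of 19903 to 84647 in CKO lungs and 76331 to 94618 in wild type lungs. Their median difference was -0.69, by pair -0.23, -0.01 and -1.69, and -0.07 without pair 3. All 14 epithelial markers were above the array median, with a median difference of -0.12, pair medians of 0.03, 0.30 and -1.04, and 0.20 without pair 3. All 8 smooth muscle markers were above it too, with -0.27, pair medians of -0.01, 0.14 and -0.93, and -0.03 without pair 3. The 10 endothelial markers, all above it, were lower in each pair, with a median of -0.94, pair medians of -0.66, -0.54 and -1.59, and -0.63 without pair 3. The 5 mesothelial markers, all above it, had -0.56, with pair medians of -0.40, -0.31 and 0.17. Of other tissues, 3 of 6 liver markers lay above the median, with summed intensities of 413.0 to 767.0 in CKO lungs and 393.0 to 466.9 in wild type lungs, and their pair medians were 0.93, -0.02 and 0.48. Cartilage markers (3 of 7 above) had pair medians of 0.37, -0.03 and 0.55, neuronal and neural crest markers (3 of 9) -0.01, 0.08 and 0.29, skeletal muscle markers (2 of 7) -0.04, 0.21 and 0.20, and blood and immune markers (4 of 5) -0.30, -0.01 and -0.67. The lowest marker intensity was above 0 on every array. None of the 10 marker lists had a gene past the adjusted threshold.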

How the data were processed

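The authors deposited 1 linear intensity per probe set and array, and the submitters' processing notes name RMA, with software, version and settings not given. From these values log2(value + 1) was computed, 64 control probe sets were left out, and genes were named from the platform annotation where a probe set had 1 symbol (34945 of 45037). The comparison used limma 3.58.1 (lmFit, eBayes, two-sided; R 4.3.3) with a term for the pair, and p-values of 45037 probe sets were adjusted by Benjamini-Hochberg. Pairs come from the design text and from letters shared by array names. Deviations from group means correlated at 0.258, 0.604 and 0.597 within pairs and at 0.215 or lower between them. The 0.258 of pair 1 was close to the 0.215 of CKO lung 2 with wild type lung 1. Deviations of the 3 arrays of a group sum to 0, so these correlations depend on each other and do not check the pairs. Nothing says more of how animals were replicated, so p-values measure the spread between these samples. Exact permutation of 3 against 3 cannot go below 0.1, or 0.25 within pairs, so none was used. Olfactory receptor probe sets were meant to set the level limit, but only 43 were found where 50 were asked for, so array medians were used. Members and the 15 other lists were chosen with earlier results of these data known. By rule, array values are given for members above the array median and for the 6 others with the smallest p. Comparison with genes of like level was added after the values were seen. The fit was tested on simulated data. Promoter sequences are from RefSeq, GRCm38.p6. No depth applies to arrays.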

Additional observations from a re-analysis of the deposited data

Results flagged for a closer look

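The 18S ribosomal RNA control probe sets on Smad1 CKO 3 averaged an intensity of 2194, above the 154.0 to 201.0 of the wild type lungs, in probe sets that the comparisons above do not use.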

How the results depend on the processing

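In each of 13 alternatives to the fit, 0 Hox members passed at an adjusted p of 0.05, including those without pair 1, 2 or 3. The median difference of the members stayed positive, from 0.10 without Smad1 CKO 3 (unpaired) to 0.42 without pair 2, and was 0.28 unpaired with all arrays. This sign is not particular to Hox genes. Of the 33 members 23 were below the array median, where all genes had a median of 0.26 in the main fit. Every fit without 1 pair also keeps pair 1 or pair 3. Beside genes of like level the median distance of the members was 0.05 in the main fit. The number of members with an unadjusted p under 0.05 was 4, but 0 with no replicate block, 0 without pair 1 and 0 without Smad1 CKO 3. It was 2 without pair 3, 2 with a pseudocount of 16 and 5 under either of the alternatives on the choice of probe set. It was 9 as means over probe sets, 10 with an intensity trend, 10 after cyclic loess normalization and 15 without pair 2. The share of all genes at this limit was not computed for the alternatives, so these counts are not read as a result about Hox genes. Over all probe sets 1 passed, against 0 with no replicate block, 0 after quantile normalization, 2 after cyclic loess normalization, 0 with a pseudocount of 16, 32 with an intensity trend, 16 among probe sets above the median brightness, and 0 to 28 without 1 of the pairs. The 10 members above the array median were 8 to 12 in the alternatives. Of 202 recomputed differences of 16 members, 191 kept their direction, 11 turned and 0 passed. Many of the 202 could not turn. Fits with no replicate block, with an intensity trend or on brighter probe sets only leave each difference unchanged. Alternatives on probe sets change nothing for members with 1 probe set. The 191 is therefore not a measure of how stable the directions are. Hoxa5 ran from -0.0078 (without Smad1 CKO 3, turned) to 1.07 when arrays were left out, and turned to -0.14 as the mean of its probe sets, and to -0.93 by the probe set brightest in wild type, and the same without x_at probe sets. Hoxa3 turned to -0.41 by the probe set brightest in wild type. Hoxb2 turned to 0.19 after quantile normalization, and 0.26 after cyclic loess, and Hoxb4 to 0.13 and 0.18. With arrays left out, Hoxb2 ran from -0.20 to 0.10 and Hoxb4 from -0.11 to 0.071, both turned only without Smad1 CKO 3. The 2 alternatives on the choice of probe set were added after the data were seen. The cause of these turns was not tested. Signal over background limits what can be said of the 23 dim members.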
